A study of Homo sapiens with 8 samples.

Results

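The genes that set the length of G1 were followed through 8 RNA-seq libraries of NB4 cells, an acute promyelocytic leukemia (APL) line that carries the PML/RARα fusion. They are the cyclin-dependent kinase (CDK) inhibitors CDKN1A, CDKN1B, CDKN2C and CDKN2D, the D-type cyclins CCND1, CCND2 and CCND3, the kinases CDK4 and CDK6, and RB1. These 10 genes were taken by symbol from the 37526 gene names listed in every file. All 10 passed the low-count filter in each comparison. Every library came from NB4 cells stably transduced with the lentiviral vector pLVX-shRNA2-puro. The shNC cells carried its control form, which the labels call an empty vector and the methods a scrambled shRNA, and the shKDM3B cells carried an shRNA against KDM3B, a demethylase of histone H3 lysine 9. Both were sequenced without treatment and after 1 µM all-trans retinoic acid (ATRA), which releases the block of granulocytic differentiation in APL cells (shNC_ATRA and shKDM3B_ATRA). The labels name both 24 h and 48 h for ATRA without saying which applies to these libraries. Each of the 4 groups had 2 replicates, and nothing says that these came from separate transductions, so that p-values measure the spread between these libraries alone. The sources do not say whether 1 or both of the KDM3B hairpins of the study were used.

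D-type cyclins bind CDK4 and CDK6, and the active kinases phosphorylate the RB1 protein, which otherwise holds E2F factors in check and keeps cells in G1. INK4 proteins (p18 from CDKN2C, p19 from CDKN2D) bind CDK4 and CDK6 alone and keep cyclins off them, whereas CIP/KIP proteins (p21 from CDKN1A, p27 from CDKN1B) bind cyclin and kinase together and inhibit cyclin E and cyclin A kinases above all. Myeloid cells leave the cycle from G1 as they mature into granulocytes, and the inhibitors are known to accumulate during that step. The comparisons ask how the mRNA of each of these genes differed with ATRA and with KDM3B knockdown.

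Between 19444480 and 33017787 read pairs per untreated library and between 9708739 and 16882512 per ATRA library were counted on genes. Pairs that the count assigned to no gene are called outside genes here. The counts do not show where such pairs lie, and the sources do not say that counting used the strand. In shNC_ATRA replicate 1 9.36% of uniquely aligned pairs were outside genes in this sense, near the 8.49% to 9.62% of the untreated libraries. The other 3 ATRA libraries had 50.0% to 51.4%. The ATRA response of shKDM3B cells therefore runs across this split, and the split cannot be told apart from ATRA there. Untreated and ATRA files also list different sets of gene names, so that gene models may differ between the 2 sides of every ATRA response, which cannot be told apart from ATRA either. Without shNC_ATRA replicate 2, the ATRA response of shNC cells lies on the low side. Without shNC_ATRA replicate 1, the comparison of both ATRA groups lies on the high side. Calls gained or lost with a library left out are to be read against the share of all genes called. For ATRA in shNC cells this was 12.9% with all libraries, 3.87% and 3.25% without shNC replicate 1 or 2, and 31.9% and 19.7% without shNC_ATRA replicate 1 or 2. For ATRA in shKDM3B cells it was 50.0% with all libraries, 60.5% and 52.8% without shKDM3B replicate 1 or 2, and 35.6% and 36.2% without shKDM3B_ATRA replicate 1 or 2. For knockdown without ATRA it was 0.0217% with all libraries and 1.42% to 4.23% with any left out. For knockdown with ATRA it was 0.00% with all libraries and without either shKDM3B_ATRA library, and 23.1% and 48.6% without shNC_ATRA replicate 1 or 2. KDM3B itself was at 186 and 189.2 CPM (counts scaled to the size of each library) in shNC, 75.1 and 89.1 in shKDM3B, 193.9 and 120.3 in shNC_ATRA and 52.8 and 57.1 in shKDM3B_ATRA. Of the promyelocyte markers, MPO was at 4251 and 5380 CPM in shNC, 8202 and 9845 in shKDM3B, 720 and 610.6 in shNC_ATRA and 3149 and 2208 in shKDM3B_ATRA, higher in the knockdown libraries with and without ATRA. CD33 was at 62.5 to 80.1 CPM without ATRA and 87.2 to 108.9 with it, CTSG was at 103.8 CPM or more without ATRA and at 4.05 or less with it, and ELANE, AZU1 and PRTN3 did not exceed 1.48. Summed over 13 markers of T, B, erythroid, endothelial, fibroblast and epithelial cells, levels were 55.5 to 64.2 CPM in shNC, 46.0 to 59.5 in shKDM3B, 105.2 to 117.5 in shNC_ATRA and 89.7 to 94.2 in shKDM3B_ATRA. Most of this sum was PECAM1 and EPCAM, and the defining markers HBB, HBA1 and MS4A1 were at 0 counts in all 8 libraries. The part of these markers in the results below was not tested.

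Of the 10 genes, 2 of the inhibitors had the largest fold changes with ATRA in shNC cells, and CDK4 was called lower with ATRA in both lines. CDKN1A and CDKN2D rose with ATRA in shNC cells, CDKN2D also rose in shKDM3B cells, and the CDKN1A level under ATRA was 6.01-fold lower in shKDM3B_ATRA than in shNC_ATRA, a difference that the tests below treated unequally. Stretches before a start site of each of these 2 genes are shown because theirs were the called increases with ATRA in shNC cells. They come from the RefSeq promoter table (GRCh38.p14), 5′ to 3′ on the strand of the gene, and end where the next exon of the gene begins in the GENCODE v44 annotation. The CDKN1A stretch is chr6:36678464-36678709 on the plus strand, before a start that lies inside the annotated gene, where other transcripts begin upstream, from 36676460 on. The CDKN2D stretch is chr19:10569060-10569229 on the minus strand, before the whole gene. Capitals would mark a searched motif, and neither holds one.
CDKN1A: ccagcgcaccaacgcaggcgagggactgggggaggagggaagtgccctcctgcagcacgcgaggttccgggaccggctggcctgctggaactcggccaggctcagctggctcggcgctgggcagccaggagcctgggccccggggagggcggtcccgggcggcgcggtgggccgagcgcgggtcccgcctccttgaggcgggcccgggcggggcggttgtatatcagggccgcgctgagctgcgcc
CDKN2D: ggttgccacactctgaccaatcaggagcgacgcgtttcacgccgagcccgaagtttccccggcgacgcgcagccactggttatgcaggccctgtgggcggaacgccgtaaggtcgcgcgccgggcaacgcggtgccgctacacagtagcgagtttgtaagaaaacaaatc
The searched motifs, on both strands of the 250 bases before each start, were the E2F motifs (TTCCCGC, the variant TTGGCGC or the variant TTGCCGC), present in 9.45% of 35116 promoters, the retinoid receptor hexamers (AGGTCA or the variant AGTTCA), present in 19.7%, and the cell cycle homology motifs (TTTGAA or the variant TTCGAA), present in 14.3%. The table had entries for 8 of the 10 genes, without CCND1 and CCND2. A CDKN2C entry, for a start inside the annotated gene, held TTCCCGC 34 bases before its start and again, on the other strand, 131 bases before it, and the RB1 entry, whose 250 bases begin at 48476200 and so lie inside the gene and not at its first start (48303744), held AGGTCA on the other strand 159 bases before its start. G and C made up 76.8% of the CDKN1A stretch and 62.4% of the CDKN2D stretch.

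CDKN1A, which encodes p21, spans positions 36676460 to 36687337 of chromosome 6 (hg38, as for the positions of the other genes). In CPM it had the lowest level of the 10 genes in every library, and 4.87% of its exon length is overlapped on the opposite strand by DINOL. Its level was 0.548 and 0.634 CPM in shNC (11 and 15 counts), 0.354 and 0.667 in shKDM3B (7 and 21 counts), 6.84 and 7.31 in shNC_ATRA (113 and 80 counts) and 0.954 and 1.40 in shKDM3B_ATRA (9 and 14 counts). Both shNC_ATRA libraries stood far above the other 6, which lay at or below 1.40 CPM. In the shNC cells CDKN1A rose 12.2-fold with ATRA (log2 fold change 3.61, standard error 0.42, 95% interval 2.62 to 4.60, edgeR adjusted p = 0.0021). With any of these libraries left out its log2 fold change was between 3.52 and 3.71, and without shNC_ATRA replicate 2, all on the low side of the split, it was 3.55. In the shKDM3B cells the log2 fold change was 1.22 (standard error 0.50, 95% interval 0.10 to 2.34), and the edgeR adjusted p of 0.0673 missed the threshold. It ranged from 0.87 without shKDM3B replicate 1 to 1.75 without shKDM3B replicate 2, and this last omission gave a call (edgeR adjusted p = 0.0213).

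The difference between the 2 responses of CDKN1A was -2.39 on the log2 scale (standard error 0.61, 95% interval -3.83 to -0.95), the largest in size of the 10 genes. It was negative with each of the 8 libraries left out, between -2.71 and -1.83. Its p from edgeR was 0.00555 before and 1.00 after Benjamini-Hochberg adjustment over 13528 genes, and DESeq2 gave 0.0123 before adjustment and no adjusted value. Between shKDM3B_ATRA and shNC_ATRA, the log2 fold change of CDKN1A was -2.59 (standard error 0.38, 95% interval -3.69 to -1.48, edgeR adjusted p = 0.502, DESeq2 adjusted p = 0.00601). Without shNC_ATRA replicate 1, where the 3 remaining libraries all had high shares outside genes, it was -2.62, and without shNC_ATRA replicate 2 it was -2.55. Either omission gave a call in edgeR, as it did for 23.1% and 48.6% of all genes, with adjusted p = 1.09e-06 and 2.2e-07, from a spread estimated on the shKDM3B_ATRA libraries alone, the closest of the 4 replicate pairs (chi-square per degree of freedom 5.59, against 31.6 to 102 in the others). Without either of the shKDM3B_ATRA libraries it was -2.33 and -2.90 and not called (edgeR adjusted p = 1.00 and 0.999), as were 0 of all 14281 genes under these 2 omissions. Before ATRA the 2 lines did not differ beyond the spread, with a log2 fold change of -0.19 and a 95% interval of -1.42 to 1.04 (edgeR adjusted p = 0.949), on 7 to 21 counts per library. With 2 libraries per group, the smallest two-sided p of an exact permutation test is 0.333. In a bulk library, fewer expressing cells and less RNA per cell cannot be told apart.

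**Figure D1:**
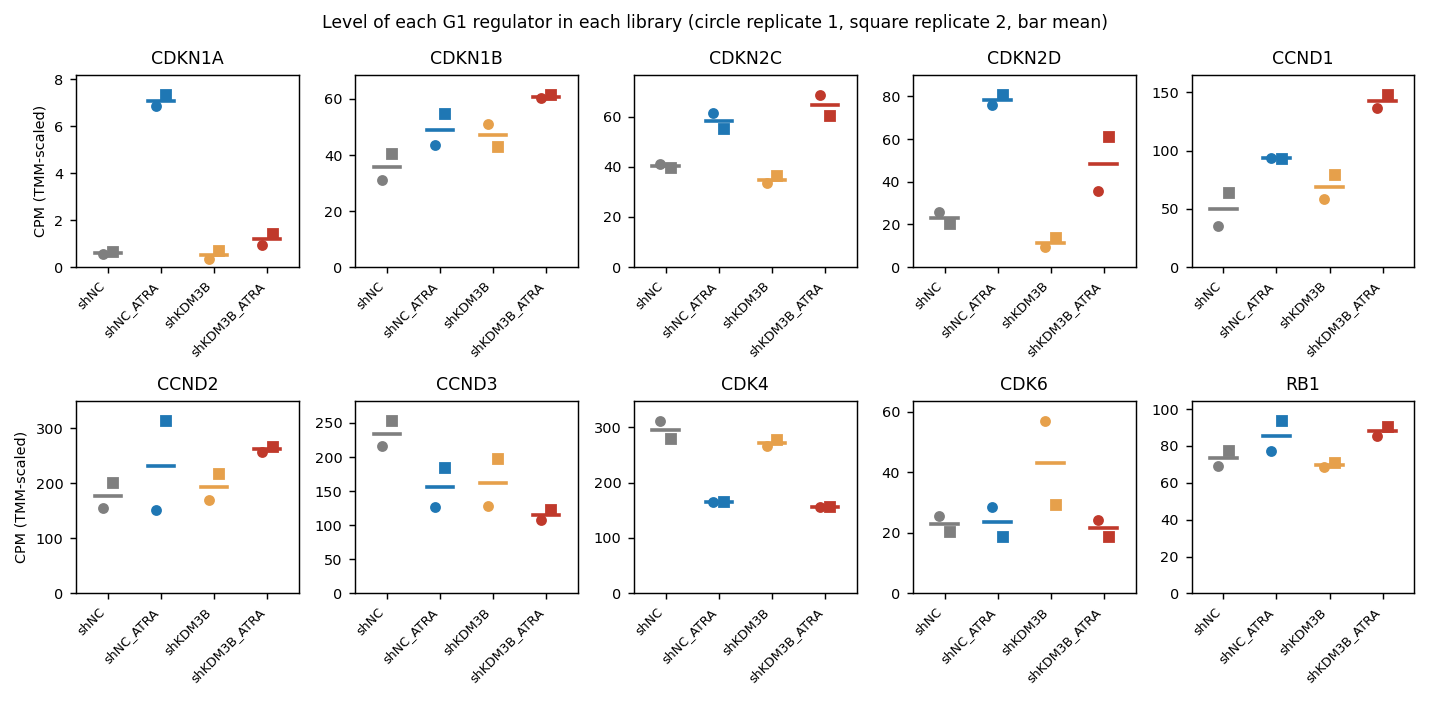
Level of each of the 10 G1 genes (vertical axis, CPM, starting at 0 with its own scale per gene) in each library of the 4 groups (horizontal axis); circles are replicate 1, squares replicate 2 and bars the group mean. Both shNC_ATRA points of CDKN1A stand at 6.84 and 7.31 CPM while the other 6 are at most 1.40, CDKN2D is higher in both ATRA groups, and CDK4 is lower in both.

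The other CIP/KIP gene, CDKN1B (p27, chromosome 12 from 12685498 to 12722369), changed much less. It was at 31.0 and 40.5 CPM in shNC, 51.0 and 43.0 in shKDM3B, 43.4 and 54.8 in shNC_ATRA and 60.2 and 61.4 in shKDM3B_ATRA. The shKDM3B_ATRA libraries were highest and the shNC libraries lowest. CDKN1B rose with ATRA in shKDM3B cells by 0.43 on the log2 scale (standard error 0.15, edgeR adjusted p = 0.0395), but not past the threshold in shNC cells, where the value was 0.51 (standard error 0.24, edgeR adjusted p = 0.232). The call in shKDM3B cells was lost without shKDM3B replicate 2 (0.29, adjusted p = 0.0847) and without either shKDM3B_ATRA library (0.46 and 0.41, edgeR adjusted p = 0.153 and 0.205). It was also lost with DESeq2 (adjusted p = 0.0516), with library size alone (edgeR adjusted p = 0.0669) and with all 8 libraries in 1 fit (edgeR adjusted p = 0.177). The response of shNC cells was 0.31 on the low side of the split (edgeR adjusted p = 0.475) and 0.68 and called without shNC_ATRA replicate 1 (edgeR adjusted p = 0.0322). Knockdown with ATRA gave 0.30 with all libraries (edgeR adjusted p = 0.606), 0.15 on the high side of the split (edgeR adjusted p = 0.501) and 0.46, called, without shNC_ATRA replicate 2 (edgeR adjusted p = 0.00702).

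Among the INK4 genes, CDKN2D (p19, chromosome 19 from 10566460 to 10569059) had the largest response. It was at 25.7 and 20.2 CPM in shNC, 9.20 and 13.7 in shKDM3B, 76.0 and 80.6 in shNC_ATRA and 35.5 and 61.2 in shKDM3B_ATRA. The 4 ATRA libraries were above the 4 untreated ones, and within each treatment both shKDM3B libraries were below both shNC libraries. ATRA raised CDKN2D 3.53-fold in shNC cells (log2 fold change 1.82, standard error 0.24, edgeR adjusted p = 0.00333) and 4.42-fold in shKDM3B cells (log2 fold change 2.14, standard error 0.27, edgeR adjusted p = 0.000184). In shNC cells the value was 1.76 on the low side of the split, and the call was lost without shNC replicate 2 (1.64, edgeR adjusted p = 0.0775), where 3.25% of all genes were called. The 2 responses differed by 0.31 with a 95% interval of -0.66 to 1.28 (edgeR adjusted p = 1.00). Knockdown without ATRA gave a log2 fold change of -1.02 (standard error 0.25, edgeR adjusted p = 0.182, DESeq2 adjusted p = 0.0163). That value was called without shNC replicate 2 (-1.19, edgeR adjusted p = 0.00271) and without shKDM3B replicate 2 (-1.31, edgeR adjusted p = 0.00974), but not without shNC replicate 1 (-0.82, edgeR adjusted p = 0.163) or shKDM3B replicate 1 (-0.80, edgeR adjusted p = 0.293). With ATRA it was -0.71 (standard error 0.31, edgeR adjusted p = 0.552, DESeq2 adjusted p = 0.441), moving from -0.36 without shKDM3B_ATRA replicate 1 to -1.16 without shKDM3B_ATRA replicate 2. Without shNC_ATRA replicate 1 it was -0.73 and called (edgeR adjusted p = 0.000173), as it was without shNC_ATRA replicate 2 (-0.67, edgeR adjusted p = 0.000378), where 23.1% and 48.6% of all genes were called.

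CDKN2C (p18, chromosome 1 from 50960745 to 50974634) was at 40.9 and 39.6 CPM in shNC, 33.5 and 36.2 in shKDM3B, 61.6 and 55.2 in shNC_ATRA and 68.5 and 60.4 in shKDM3B_ATRA. Here, too, every ATRA library was above every untreated one. CDKN2C rose with ATRA in shKDM3B cells (log2 fold change 0.95, standard error 0.14, edgeR adjusted p = 0.000464) and had a log2 fold change of 0.59 in shNC cells (standard error 0.21, edgeR adjusted p = 0.121), which was called at 0.65 without shNC_ATRA replicate 2, on the low side of the split (edgeR adjusted p = 0.0452), and at 0.55 with all 8 libraries in 1 fit (edgeR adjusted p = 0.0346), but not at 0.52 without shNC_ATRA replicate 1 (edgeR adjusted p = 0.108). Knockdown with ATRA gave 0.13, and 0.22 on the high side of the split (edgeR adjusted p = 0.288). The difference between the responses was 0.35, with a 95% interval of -0.11 to 0.80. Of its exon length, 20.4% is overlapped on the opposite strand by a gene without a symbol, and the sources do not say that counting used the strand. The remaining inhibitor genes, CDKN2A, CDKN2B and CDKN1C, were at 0 counts in all libraries except for 0.0605 CPM of CDKN2B in shNC_ATRA replicate 1. At these depths 3 counts, the limit that a count of 0 allows, correspond to 0.0952 to 0.318 CPM.

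Of the D-type cyclins, CCND1 (chromosome 11 from 69641156 to 69654474) rose with ATRA in shKDM3B cells, as did CCND2 (chromosome 12 from 4269771 to 4305353), while CCND3 (chromosome 6 from 41934934 to 42050357) passed none of the 4 comparisons of groups in edgeR with each fitted on its own filtered libraries. CCND1 was at 35.5 and 63.9 CPM in shNC, 58.4 and 79.2 in shKDM3B, 93.6 and 92.9 in shNC_ATRA and 136.7 and 147.5 in shKDM3B_ATRA. All 4 ATRA libraries were above all untreated ones, and both shKDM3B_ATRA libraries above both shNC_ATRA libraries. Exons of LTO1 overlap 10.4% of the CCND1 exon length on the opposite strand. CCND1 rose with ATRA in shKDM3B cells (log2 fold change 1.11, standard error 0.15, edgeR adjusted p = 0.000273). In shNC cells the log2 fold change was 0.96 (standard error 0.30, edgeR adjusted p = 0.0819, DESeq2 adjusted p = 0.0278), from 0.60 without shNC replicate 1 to 1.43 without shNC replicate 2, and it was 0.95 and called on the low side of the split (edgeR adjusted p = 0.000771) and 0.96 and called without shNC_ATRA replicate 1 (edgeR adjusted p = 0.00193). Knockdown without ATRA gave 0.45 (standard error 0.27, edgeR adjusted p = 0.657), which was 0.10 without shNC replicate 1 (edgeR adjusted p = 0.999) and 0.93 without shNC replicate 2, the only omission that gave a call (edgeR adjusted p = 0.0167). Between the ATRA groups the knockdown gave 0.60 (standard error 0.12, 95% interval 0.26 to 0.93, edgeR adjusted p = 0.502, DESeq2 adjusted p = 0.00211). That value stayed between 0.53 and 0.66 with each library left out. It was called without shNC_ATRA replicate 1 (0.61, edgeR adjusted p = 0.000226) and without shNC_ATRA replicate 2 (0.58, edgeR adjusted p = 0.00013), omissions under which 23.1% and 48.6% of all genes were called.

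CCND3 was at 215.8 and 252.2 CPM in shNC, 128.5 and 196.7 in shKDM3B, 126.8 and 184.1 in shNC_ATRA and 108.2 and 122.8 in shKDM3B_ATRA. The shNC libraries were the highest and the shKDM3B_ATRA libraries the lowest. Its log2 fold change was -0.54 with ATRA in shNC cells (standard error 0.25, adjusted p = 0.215), -0.42 with ATRA in shKDM3B cells (standard error 0.18, adjusted p = 0.0768), -0.54 for knockdown without ATRA (standard error 0.20, adjusted p = 0.392) and -0.44 for knockdown with ATRA (standard error 0.23, adjusted p = 0.592). These edgeR values all missed the threshold, and leaving out 1 library moved each of them. With ATRA in shNC cells it was -0.85 on the low side of the split (edgeR adjusted p = 0.00378) but -0.29 without shNC_ATRA replicate 1 (edgeR adjusted p = 0.376). For knockdown with ATRA it was -0.67 on the high side of the split (edgeR adjusted p = 1.57e-05) but -0.16 without shNC_ATRA replicate 2 (edgeR adjusted p = 0.308). With ATRA in shKDM3B cells it was -0.71 without shKDM3B replicate 1 (edgeR adjusted p = 1.82e-06) but -0.12 without shKDM3B replicate 2 (edgeR adjusted p = 0.433), and it was called with all libraries when the low-count filter was dropped (edgeR adjusted p = 0.00535). For knockdown without ATRA it was -0.85 without shKDM3B replicate 2 (edgeR adjusted p = 0.0234) but -0.30 without shKDM3B replicate 1 (edgeR adjusted p = 0.931).

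CCND2 was at 155.4 and 199.7 CPM in shNC, 169.3 and 216.5 in shKDM3B, 150.5 and 311.9 in shNC_ATRA and 256.3 and 266.3 in shKDM3B_ATRA. The low shNC_ATRA value belongs to replicate 1, the library with 9.36% outside genes, and whether the split plays a part in it was not tested. CCND2 rose with ATRA in shKDM3B cells by 0.51 on the log2 scale (standard error 0.13, edgeR adjusted p = 0.0113), a call lost without either shKDM3B_ATRA library (edgeR adjusted p = 0.053 and 0.0984). In shNC cells its log2 fold change changed sign, from -0.21 without shNC_ATRA replicate 2 to 0.87 without shNC_ATRA replicate 1, the latter called (edgeR adjusted p = 0.00173). Knockdown with ATRA gave -0.26 without shNC_ATRA replicate 1 and 0.77 without replicate 2, again called in the latter (edgeR adjusted p = 2.62e-07), against 0.17 with all libraries (95% interval -0.97 to 1.30). Exons of other genes overlap 12.5% of CCND2 on its own strand.

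Per kilobase of exon, CCND3 made up less of the D-type cyclins, and CCND1 and CCND2 each more, in all 6 other libraries than in shNC. CCND3 made up 58.2% and 53.3% of their summed level in shNC, 40.0% and 43.8% in shKDM3B, 36.4% and 35.3% in shNC_ATRA and 23.6% and 24.9% in shKDM3B_ATRA. These 4 groups did not overlap. The CCND1 share was 11.6% and 16.3% in shNC, 22.0% and 21.4% in shKDM3B, 32.5% and 21.6% in shNC_ATRA and 36.1% and 36.2% in shKDM3B_ATRA. The CCND2 share was 30.2% and 30.4% in shNC, 38.0% and 34.8% in shKDM3B, 31.1% and 43.1% in shNC_ATRA and 40.3% and 38.9% in shKDM3B_ATRA, so that in shNC_ATRA replicate 2 CCND2 gained more than CCND1. The sum itself overlapped between groups, at 64.4 and 82.2 CPM per kilobase in shNC and 79.6 and 85.6 in shKDM3B_ATRA. The shares are descriptions without a test, and those of shNC_ATRA carry the unequal CCND2 values of its 2 libraries.

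**Figure D2:**
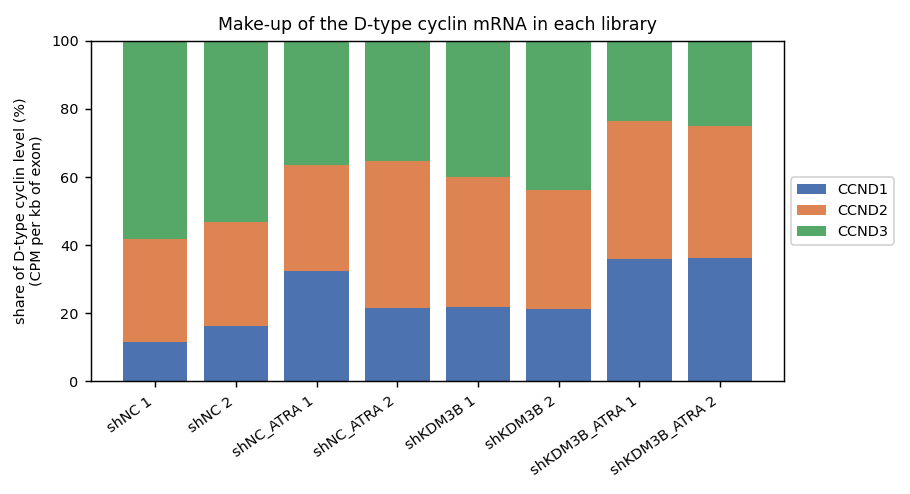
Share of CCND1, CCND2 and CCND3 (vertical axis, percent of their summed CPM per kilobase of exon) in each library (horizontal axis, group and replicate), as stacked bars that reach 100. The CCND3 block shrinks from 58.2% and 53.3% in shNC to 23.6% and 24.9% in shKDM3B_ATRA.

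Of the kinases, CDK4 (chromosome 12 from 57747727 to 57756013) fell with ATRA in both lines. It was at 310.1 and 278.4 CPM in shNC, 266.3 and 277.4 in shKDM3B, 164.2 and 165.1 in shNC_ATRA and 156.5 and 155.9 in shKDM3B_ATRA. The highest ATRA library was at 165.1 and the lowest untreated one at 266.3. The log2 fold change was -0.79 in shNC cells (standard error 0.20, edgeR adjusted p = 0.0449) and -0.74 in shKDM3B cells (standard error 0.12, edgeR adjusted p = 0.000657). In shNC cells the call was lost without shNC replicate 1 (-0.71, edgeR adjusted p = 0.352) or shNC replicate 2 (-0.88, edgeR adjusted p = 0.262), omissions that left calls for 3.87% and 3.25% of all genes, and the value was -0.81 on the low side of the split (edgeR adjusted p = 0.00575). The 2 responses differed by 0.04 (95% interval -0.38 to 0.45). Knockdown gave -0.13 without ATRA (95% interval -0.46 to 0.20) and -0.09 with it (95% interval -0.39 to 0.22), or -0.08 on the high side of the split. Exons of TSPAN31 overlap 44.2% of the CDK4 exon length on the opposite strand, so that reads of these genes may not be told apart.

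CDK6 (chromosome 7 from 92604921 to 92836573) was scattered. It was at 25.7 and 20.2 CPM in shNC, 56.8 and 29.3 in shKDM3B, 28.6 and 18.6 in shNC_ATRA and 24.3 and 18.8 in shKDM3B_ATRA. The highest value belonged to shKDM3B replicate 1, and the other 7 libraries lay between 18.6 and 29.3. CDK6 fell with ATRA in shKDM3B cells (log2 fold change -0.94, standard error 0.30, edgeR adjusted p = 0.0264), a call lost without shKDM3B replicate 1 (-0.39, adjusted p = 0.0701) and, narrowly, without shKDM3B_ATRA replicate 2 (-0.78, edgeR adjusted p = 0.0505). Knockdown without ATRA gave 0.90 (standard error 0.32, edgeR adjusted p = 0.361), which was 0.30 without shKDM3B replicate 1. It was called without shNC replicate 1 (1.10, edgeR adjusted p = 0.0152) and without shKDM3B replicate 2 (1.32, edgeR adjusted p = 0.000127). Its response to ATRA in shNC cells was 0.09 (edgeR adjusted p = 0.876), with 0.35 on the low side of the split and -0.24 without shNC_ATRA replicate 1. Knockdown with ATRA gave -0.15 (edgeR adjusted p = 0.902), with 0.21 on the high side of the split and -0.43 without shNC_ATRA replicate 2. Per kilobase, CDK4 made up between 94.9% and 98.2% of the summed level of both kinases in all 8 libraries. That sum was 102.3 and 91.6 CPM per kilobase in shNC, 90.7 and 92.1 in shKDM3B, 55.4 and 54.9 in shNC_ATRA and 52.6 and 51.9 in shKDM3B_ATRA.

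RB1 (chromosome 13 from 48303744 to 48599436), the substrate of these kinases, was nearly level. It was at 69.2 and 77.4 CPM in shNC, 68.5 and 70.7 in shKDM3B, 77.2 and 93.3 in shNC_ATRA and 85.4 and 90.3 in shKDM3B_ATRA. ATRA raised RB1 in shKDM3B cells by 0.40 on the log2 scale (standard error 0.13, edgeR adjusted p = 0.0257), a call lost without either shKDM3B_ATRA library (edgeR adjusted p = 0.130 and 0.260), and gave 0.27 in shNC cells (standard error 0.21, edgeR adjusted p = 0.474), or 0.11 on the low side of the split (edgeR adjusted p = 0.842). Knockdown gave -0.09 without ATRA (95% interval -0.43 to 0.26) and 0.03 with it (95% interval -0.38 to 0.45), or -0.09 on the high side of the split.

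Set in order of level per kilobase of exon, the shNC cells had CDK4 first, at 95.1 ± 7.26 CPM per kilobase (SD, n = 2), then CCND3 at 40.6 ± 4.48 and CCND2 at 22.2 ± 3.92. CDKN2D at 15.3 ± 2.59, CDKN2C at 13.3 ± 0.308, RB1 at 11.4 ± 0.906 and CCND1 at 10.4 ± 4.23 followed. CDKN2D did not differ from CDKN2C, nor RB1 from CCND1, beyond their spread, while CDKN2C and RB1 did not overlap. CDKN1B at 3.86 ± 0.721, CDK6 at 1.87 ± 0.318 and CDKN1A at 0.197 ± 0.0202 came last. In shNC_ATRA cells CDKN2D reached 52.0 ± 2.13 CPM per kilobase (SD, n = 2), next to CDK4 at 53.2 ± 0.222, a difference within the spread. In shKDM3B_ATRA cells CDK4 was at 50.5 ± 0.140 and CDKN2D at 32.1 ± 12.0, close to CCND2 at 32.7 ± 0.888 and CCND1 at 29.8 ± 1.61. CDKN1A was last in shKDM3B_ATRA, at 0.393 ± 0.105, as in both untreated groups, whereas in shNC_ATRA it was at 2.36 ± 0.113, next to CDK6 at 1.93 ± 0.577, a difference within the spread. Lengths count every annotated exon of a gene, so that genes with long rarely used exons rank lower than their main transcript would.

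Counted over the 10 genes, ATRA in shNC cells raised 2 (CDKN1A and CDKN2D) at an adjusted p under 0.05 in edgeR, where 7.84% of the 12429 genes tested were called higher, and lowered 1 (CDK4), where 5.06% were called lower, or 12.9% in either direction. The median log2 fold change of the 10 genes was 0.47, against 0.02 for all genes tested. In shKDM3B cells it raised 6, where 27.5% of 12756 genes were called higher, and lowered 2, where 22.5% were called lower, so that calls of either direction covered 50.0% of all genes. The median of the 10 genes was again 0.47, against 0.04. CDKN1A and CCND3 were the members not called there. With all 8 libraries in 1 fit the calls of CDKN1B, CCND2, CDK6 and RB1 were lost, at edgeR adjusted p = 0.177, 0.309, 0.0798 and 0.109, and the share of all genes called there went from 50.0% to 27.4%. These 2 comparisons share no library, and their unequal numbers of calls are no test of a difference.

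The knockdown called 0 of the 10 genes in edgeR both without ATRA, where 0.0217% of 13855 genes were called, and with ATRA, where 0.00% of 14281 were. With ATRA KDM3B itself was therefore not called either, at 52.8 and 57.1 CPM in shKDM3B_ATRA against 193.9 and 120.3 in shNC_ATRA. A lack of calls there is no sign of equal levels. At an unadjusted p under 0.05 there were 3 without ATRA (CDKN2D, CCND3 and CDK6), where 10.2% of all genes passed, and 2 with ATRA (CDKN1A and CCND1), where 9.68% did. DESeq2 called CDKN2D without ATRA, where it called 2.01% of all genes, and CDKN1A and CCND1 with ATRA, where it called 3.25%. The median of the 10 genes was -0.11 without ATRA and -0.03 with it, against 0.00 and 0.03 for all genes tested. In the test of the difference between the responses, edgeR called 0 of the 10 and 0.00% of 13528 genes. At an unadjusted p under 0.05 CDKN1A passed with edgeR, as did 4.49% of all genes. DESeq2 gave CDKN1A no adjusted value (DESeq2 unadjusted p = 0.0123), so that it could not be called. Of the other 9 DESeq2 called 0, and of all genes 0.185%. For the other 9 genes the difference between responses was between -1.06 (CDK6, 95% interval -2.29 to 0.17) and 0.35 (CDKN2C).

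The methods of the study selected genes with DESeq2 at an unadjusted p under 0.05 and a change of at least 1.5-fold. By that rule on DESeq2, ATRA in shNC cells raised CDKN1A, CDKN2D and CCND1, against 14.3% of all genes, and lowered CDK4, against 10.5%. In shKDM3B cells it raised CDKN2C, CDKN2D and CCND1, against 22.0%, and lowered CDK4 and CDK6, against 16.6%. Knockdown without ATRA passed for CDK6 upwards, against 2.93%, and for CDKN2D downwards, against 2.79%. Under ATRA it passed for CCND1 upwards, against 2.66%, and for CDKN1A downwards, against 4.48%. In the difference between responses no gene of the 10 passed upwards, against 1.31%, and CDKN1A passed downwards, against 2.40%. The same thresholds on the edgeR p added CDKN2C with ATRA in shNC cells and CDKN1A with ATRA in shKDM3B cells and changed no other member. The edgeR shares of all genes that passed upwards and downwards were 15.0% and 10.8% with ATRA in shNC cells, 24.0% and 18.3% with ATRA in shKDM3B cells, 3.48% and 3.53% for knockdown without ATRA, 2.42% and 4.37% for knockdown with ATRA, and 1.27% and 2.72% in the difference.

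**Figure D3:**
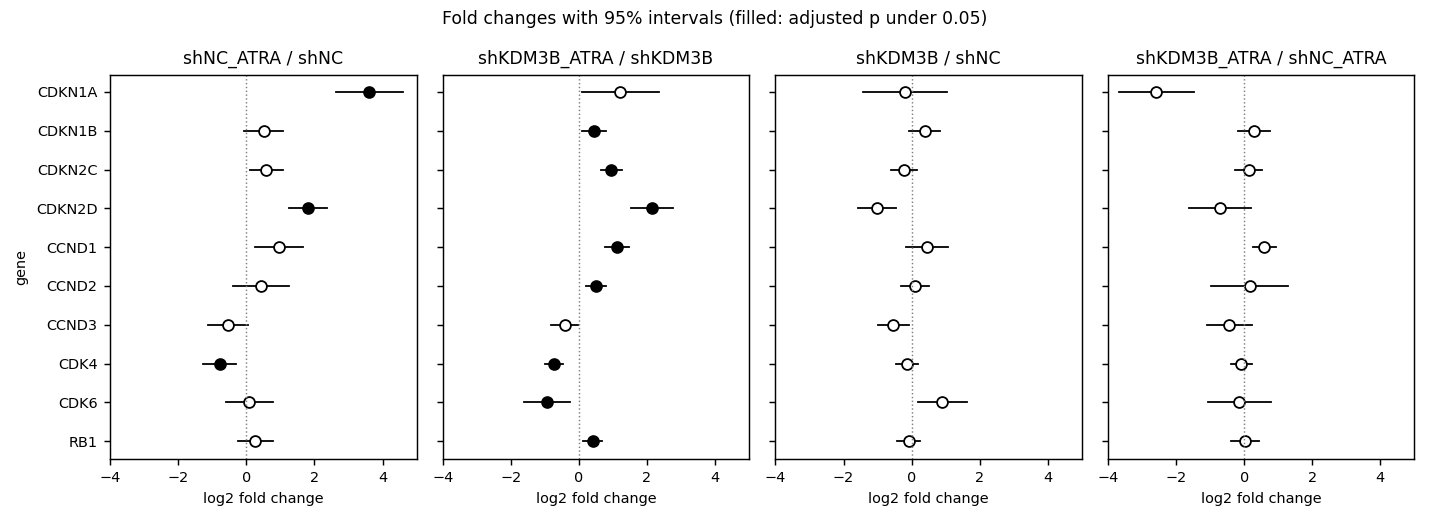
Log2 fold change of each of the 10 genes (horizontal axis) in the 4 comparisons of groups named above the panels; points are edgeR estimates, lines their 95% intervals, and filled points have an adjusted p under 0.05. CDKN1A lies at 3.61 with ATRA in shNC cells and at -2.59 for knockdown under ATRA, and the filled points number 3, 8, 0 and 0 from left to right.

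**Figure D4:**
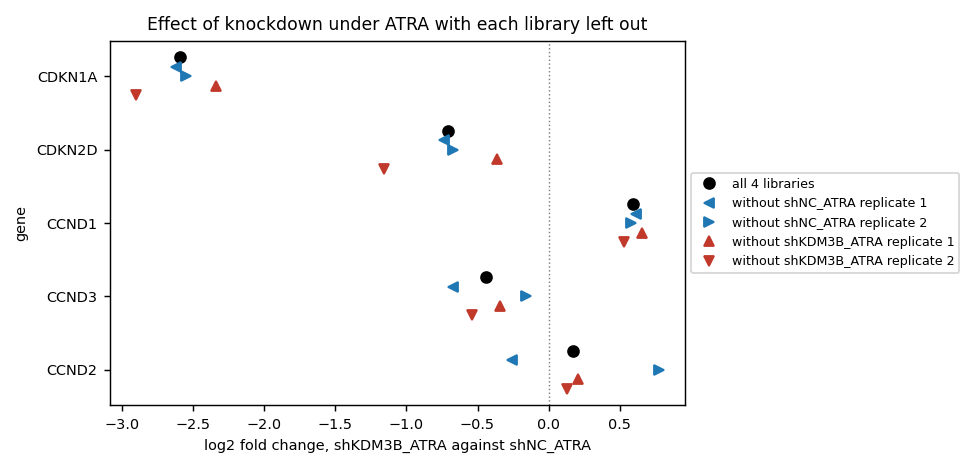
Log2 fold change between shKDM3B_ATRA and shNC_ATRA (horizontal axis) of 5 of the 10 genes (vertical axis), with all 4 libraries and with each left out. CDKN1A stays between -2.90 and -2.33 and CCND1 between 0.53 and 0.66. CDKN2D spreads from -1.16 to -0.36, and CCND2 changes sign with the shNC_ATRA library that is left out. CDK6 (-0.43 to 0.21) and RB1 (-0.088 to 0.16), which are not shown, change sign as well.

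Further genes of the G1 network were counted from a list of 35, which holds pocket proteins, cyclins E and A with CDK2 and CDC25A, E2F factors and their partners, the CDK-activating kinase, ubiquitin ligase parts, the DREAM complex and the CDK inhibitors CDKN2A, CDKN2B and CDKN1C. From 29 to 31 were tested per comparison. With ATRA in shKDM3B cells 5 of 30 rose and 9 fell, against the 27.5% and 22.5% of all genes. In the other 3 comparisons of groups, and in the test of the difference between responses, edgeR called 0 of them. At an unadjusted p under 0.05 there were 4 of 31 with ATRA in shNC cells (27.6% of all genes), 4 of 31 for knockdown without ATRA (10.2%), 1 of 29 for knockdown with ATRA (9.68%) and 0 of 31 in the test of the difference (4.49%). DESeq2 called 2, 2, 0 and 0 of them, and 17.5%, 2.01%, 3.25% and 0.185% of all genes.

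The 3 largest rises in shKDM3B cells were those of E2F5 (a repressive E2F factor), CCNE2 (cyclin E2) and CCNH (the cyclin of the CDK-activating kinase), at 0.69 (standard error 0.21, edgeR adjusted p = 0.0217), 0.56 (standard error 0.16, edgeR adjusted p = 0.0161) and 0.42 (standard error 0.12, edgeR adjusted p = 0.0181) on the log2 scale. The 3 largest falls were those of CCNE1 (cyclin E1) by 0.70 (standard error 0.18, edgeR adjusted p = 0.00886), MYBL2 (the B-MYB factor that joins the DREAM core) by 0.67 (standard error 0.18, edgeR adjusted p = 0.0123) and AMBRA1 (the substrate receptor that marks D-type cyclins for degradation) by 0.62 (standard error 0.14, edgeR adjusted p = 0.00594). Leaving out shKDM3B_ATRA replicate 2 lost the calls of E2F5, CCNE2, CCNH, CCNE1 and AMBRA1, at edgeR adjusted p values from 0.0628 (AMBRA1) to 0.169 (CCNH). Leaving out shKDM3B_ATRA replicate 1 lost those of CCNE2, CCNH, MYBL2 and AMBRA1, from 0.0605 (CCNE2) to 0.14 (CCNH). E2F5 was at 17.9 and 20.2 CPM in shNC, 42.0 and 28.6 in shKDM3B, 6.90 and 61.4 in shNC_ATRA and 50.3 and 58.6 in shKDM3B_ATRA. AMBRA1 was at 46.3 and 48.2 in shNC, 46.1 and 50.7 in shKDM3B, 44.9 and 25.5 in shNC_ATRA and 30.4 and 29.9 in shKDM3B_ATRA. For both genes the shNC_ATRA library with 9.36% outside genes stood apart from the 3 ATRA libraries with 50.0% or more. The part of that split in these 2 genes was not tested.

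Across all 8 libraries, the genes whose log2 levels, centred on their mean, were nearest to those of CDKN1A among 13527 were CAMP (an antimicrobial peptide of neutrophil granules), USP2 (a deubiquitinase) and CEBPB (a myeloid transcription factor), at root mean square differences of 0.37, 0.42 and 0.44. Those nearest to CDKN2D were LINC00963, BCL6 (a transcriptional repressor) and TGM5 (a transglutaminase), at 0.17, 0.18 and 0.21. Nearest to CDK6 were ANKRD12, SORL1 and CRK, at 0.21, 0.22 and 0.22. These are descriptions over libraries that share treatment and the split in reads outside genes.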

How the data were processed

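RNA-seq libraries of 8 NB4 samples were prepared with a TruSeq kit, and the methods state that reads were aligned to hg38 with HISAT2 and counted with HTSeq; versions are not given in the sources used here. The values that the authors deposited are raw counts per gene name, without normalization, with 5 summary lines of HTSeq that were left out of all tests. Untreated files list 56470 names and ATRA files 56609, of which 37526 are shared and were used wherever ATRA and untreated libraries were compared. The methods name a single RefSeq annotation, but the differing lists mean that gene models may differ between ATRA and untreated counts. Depth was 9708739 to 33017787 counted pairs per library, and the limits given for counts of 0 cover counting error only, whereas the 95% intervals of fold changes rest on the spread between libraries.

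Groups were taken from the sample titles. Each comparison was fitted on its own 4 libraries with edgeR 4.0.16 (R 4.3.3): filterByExpr, TMM scaling, quasi-likelihood F test, and Benjamini-Hochberg adjustment over all genes tested, with calls at an adjusted p under 0.05. An interaction term fitted to all 8 libraries tested the difference between the ATRA responses. A standard error is the log2 fold change divided by the square root of F. The study's own rule (DESeq2, unadjusted p under 0.05 and 1.5-fold) was counted beside it on both DESeq2, a count added after the data were seen, and edgeR. CPM in the text were TMM-scaled over all 8 libraries, and per-kilobase levels use the summed exon length of GENCODE v44. Alternatives were DESeq2 1.42.0, its size factors, library size alone, no low-count filter, the replicate number as a block, all 8 libraries in 1 fit and each library left out, where a lone library is assumed to vary like the others. The tests were also run on simulated counts in which all genes and groups had the same spread. That setting differs from the unequal replicate pairs here and from the low counts of CDKN1A. It therefore does not show how the tests behave for those.

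The 10 genes, the list of 35 and the markers were chosen with earlier results of these data known. The rule for named genes takes all 10, the 3 largest called changes per direction of the longer list, and the 3 genes nearest in pattern (root mean square difference of centred log2 CPM) to CDKN1A, CDKN2D and CDK6. Protein sequences were not analysed here.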

Additional observations from a re-analysis of the deposited data

How the results depend on the processing

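Of the log2 fold changes of the 10 genes, 268 under other settings kept their direction and side of the threshold, 14 gained a call, 7 lost one and 1 changed sign, that of CDK6 with ATRA in shNC cells (-0.0021 with library size alone). With a library left out 180 kept both, 23 gained a call, 12 lost one and 25 changed sign; the cause was not tested.

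In ATRA against untreated shNC cells, 2 members higher became 4 under the study's rule on edgeR, 3 with DESeq2 or without the filter (adding CCND1, adjusted p = 0.0278 and 0.0327), 3 with all 8 libraries in 1 fit (adding CDKN2C, edgeR adjusted p = 0.0346) and 3 with the study's rule on DESeq2, a setting chosen after seeing the data, and 1 lower became 0 with the replicate block, while the 0 other G1 genes called lower became 2 with DESeq2, 4 with all 8 libraries in 1 fit and 2 under the study's rule. Over all genes, 12.9% were called there, 17.5% with DESeq2, 12.4% without the filter, 17.0% with all 8 libraries and 11.2% with the block. With ATRA in shKDM3B cells, 6 members higher and 2 lower became 3 and 1 with all 8 libraries, where 27.4% of all genes were called against 50.0%, and the 6 became 3 with the study's rule on DESeq2. The 5 other G1 genes higher became 3 with DESeq2's size factors, 3 with library size alone, 0 with all 8 libraries and 1 under the study's rule. The 9 lower became 4 with all 8 libraries and 3 under the study's rule. Over all genes, 50.2% were called in either direction with DESeq2's size factors and 50.0% with library size alone, against 50.0% with TMM scaling. For knockdown without ATRA, 0 members higher became 1 without the filter, 2 with the block and 1 under the study's rule, and 0 lower became 1 without the filter, 1 with DESeq2, 2 with the block and 1 under the study's rule. Over all genes, 0.0217% were called in that comparison, 2.35% without the filter, 2.01% with DESeq2 and 9.22% with the block. There, 0 other G1 genes higher became 2 without the filter, with DESeq2, with the block and under the study's rule, and 0 lower became 1 without the filter and 4 with the block. For knockdown with ATRA, 1 member was called in each direction with DESeq2 and likewise under the study's rule, and for the difference between responses 1 member lower under that rule. In all other counts, the study's rule gave the same number on DESeq2 as on edgeR.

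Leaving out 1 library gave, with ATRA in shNC cells, 1 to 5 members higher and 0 to 2 lower, and 0 to 3 other G1 genes in each direction, with 3.25% to 31.9% of all genes called. With ATRA in shKDM3B cells it gave 3 to 6 and 1 to 2 members, and 0 to 6 and 1 to 11 other genes, with 35.6% to 60.5% of all genes called. For both knockdown comparisons and for the difference between responses, the omissions also moved the calls over all genes, so that numbers of members called are not listed. Signs changed for CCND2 (-0.21 to 0.87) and CDK6 (-0.24 to 0.35) with ATRA in shNC cells, for CDKN1A (-0.72 to 0.12) and CCND2 (-0.058 to 0.28) in the knockdown without ATRA, and for CCND2 (-0.26 to 0.77), CDK6 (-0.43 to 0.21) and RB1 (-0.088 to 0.16) in the knockdown with ATRA. In the difference between responses they changed for CDKN1B (-0.28 to 0.083), CDKN2D (-0.12 to 0.68), CCND1 (-0.34 to 0.49), CCND2 (-0.37 to 0.67), CCND3 (-0.14 to 0.45), CDK4 (-0.0555 to 0.12) and RB1 (-0.011 to 0.25).

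Same-numbered libraries share only a number in the labels. The correlation of their deviations from the group means, across genes, was -0.0731 with ATRA in shNC cells, 0.183 with ATRA in shKDM3B cells, 0.389 for knockdown without ATRA and 0.0261 with ATRA. With the replicate block, calls over all genes went from 1604 to 1395, from 6381 to 7362, from 3 to 1277 and from 0 to 0 in these comparisons. CCND1, CCND3, CDK6 and CDKN2D were called under the block for knockdown without ATRA, CCND3 with ATRA in shKDM3B cells (edgeR adjusted p = 0.00661), CDK4 was not with ATRA in shNC cells (0.118), and CDKN1A with ATRA had an edgeR adjusted p of 0.781. CDKN1A rests on 7 to 21 counts per library outside shNC_ATRA, which limits its interval in all comparisons that involve those libraries. No setting moved the median of all genes by 0.1 or more on the log2 scale.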
